A study of Mus musculus with 12 samples.

Results

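Secreted cytokine and chemokine RNA was examined in sorted stem cell fractions of a mouse model of chronic myeloid leukemia (CML). The set holds 10 of the 46102 genes in the expression files: the interleukins Il6, Il4 and Il13, the colony-stimulating factors Csf1 and Csf2, the IL-6 family cytokine Osm, and the chemokines Ccl3, Ccl4, Ccl9 and Cxcl2. These 10 genes were chosen by their measured values in the libraries described here, so their levels and group differences are given as a description and were not tested. All 10 were found in the files under their own symbol, each as a single entry. Of the 10, 7 reached 1 RPKM, a read number normalized to transcript length and library size, in 3 or more libraries, the minimum for the fit across genes. Il13, Csf1 and Csf2 did not.

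Bone marrow cells of 5FU-treated C57BL/6 mice, which carry a G0 marker (G0M) in the Rosa26 locus switched on by Vav1-Cre in blood cells, were given BCR-ABL1 with GFP by a retrovirus and put into lethally irradiated wild-type recipients. From these mice, cells that were BCR-ABL1+, negative for lineage markers and positive for Sca1 and c-Kit (LSK cells) were sorted from bone marrow and spleen, and each library was made from 100 cells. DP cells carried both G0M, a fluorescent reporter of quiescent cells built on a mutant of p27, and CD27, and SP cells carried CD27 without G0M. DP and SP cells came from vehicle-treated CML mice, and IMDP and IMSP cells were the same populations from CML mice treated daily by gavage with imatinib, which blocks the kinase activity of BCR-ABL1, with 3 libraries in each of the 4 groups. The oncogene is overexpressed from the vector in all 4 groups, and the labels do not say whether the 3 libraries came from separate mice or from pooled mice, so p-values may measure technical spread only.

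The totals behind the RPKM values, recovered from the files, came to 11367631 to 20573779 reads per library, of which 24.1% to 34.6% lay on listed features. All 4 groups expressed genes of stem and progenitor cells, with Kit at 16.8 to 39.8 RPKM, Cd27 at 12.2 to 21.4 RPKM and Cd34 at 29.0 to 66.9 RPKM over the 12 libraries. Mki67, a gene of dividing cells, lay at 7.18 to 21.2 RPKM in the G0M+ libraries and at 50.8 to 70.6 RPKM in the G0M- libraries. Imatinib libraries carry library numbers 1 to 6 and vehicle libraries 7 to 12, so that imatinib and any effect of the library order cannot be told apart. Within a treatment, a G0M+ and a G0M- library stand next to each other in this order, and deviations from the group means correlated in each such pair across genes, from 0.43 to 0.65. DP1 and IMDP1 had the highest summed levels of mast cell and basophil markers.

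As background, IL-6 binds a receptor of Il6ra and the shared signaling chain Il6st (gp130) and activates JAK kinases and STAT3, and oncostatin M (Osm) uses the same signaling chain with Osmr or Lifr. IL-4 and IL-13 signal through Il4ra and STAT6 and are typical products of activated mast cells, basophils and type 2 lymphocytes. Csf1 (M-CSF) and Csf2 (GM-CSF) drive the growth of macrophages and of granulocytes and macrophages, and Ccl3, Ccl4, Ccl9 and Cxcl2 attract leukocytes through chemokine receptors. Several of these genes are textbook targets of NF-κB, and their short-lived mRNAs are limited by decay factors. In CML, cytokines made by leukemic cells have been studied as signals between leukemic and normal progenitors.

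The promoter windows of the genes are shown for the motifs they share, since several of them are textbook NF-κB targets. RefSeq windows of GRCm38.p6, from 250 bases before to 50 bases after an annotated start, were matched for 8 of the 10 genes by symbol. Osm and Ccl4 had no entry. The κB motif, searched on both strands, was found in 4 of the 8 genes (Il6, Cxcl2, Csf1 and Ccl9) and in 4.51% of all 32851 windows. It started 44 bases before the start site in Il6, 97 in Cxcl2 with an overlapping match at 96, 154 in Csf1 and 35 in Ccl9. The stretches around these matches, and that of Il4 with its 4 matches to the core of the NFAT motif (GGAAAA), read as follows on the strand of the gene, with the matched bases in capitals.
Il6, chr5:30013024-30013143, plus strand: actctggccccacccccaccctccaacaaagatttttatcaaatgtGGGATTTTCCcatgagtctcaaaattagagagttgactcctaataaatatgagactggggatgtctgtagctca
Cxcl2, chr5:90903759-90903878, plus strand: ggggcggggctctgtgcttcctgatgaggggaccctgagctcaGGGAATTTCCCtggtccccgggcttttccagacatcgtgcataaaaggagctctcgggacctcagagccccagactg
Csf1, chr3:107760550-107760669, minus strand: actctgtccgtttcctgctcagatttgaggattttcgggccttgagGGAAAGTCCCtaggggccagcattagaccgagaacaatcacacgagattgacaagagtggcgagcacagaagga
Ccl9, chr11:83578597-83578716, minus strand: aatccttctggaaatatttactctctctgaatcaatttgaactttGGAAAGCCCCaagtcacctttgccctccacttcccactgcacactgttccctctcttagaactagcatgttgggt
Il4, chr11:53618706-53618865, minus strand: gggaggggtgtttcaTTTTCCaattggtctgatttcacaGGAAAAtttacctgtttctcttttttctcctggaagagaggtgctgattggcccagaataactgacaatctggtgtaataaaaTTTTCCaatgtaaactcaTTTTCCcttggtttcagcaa

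The NFAT core was found in 5 of the 8 genes (Il6, Il4, Il13, Ccl3 and Cxcl2) and in 23.4% of all windows, and the match in Il6 lies inside its κB match. The C/EBP motif TTGCNNAA was found in Il6, Il4 and Csf2 (10.8% of all windows), and the AP-1 motif TGANTCA in Il6 and Ccl9 (7.81%). The GATA motif AGATAA was found in Il13 and Csf2 (11.2%), the TATA box TATAAA in Il13 and Ccl9 (13.6%), and the STAT motif TTCNNNGAA at the second annotated start of Il4 (8.30%). None of the 8 genes held the CRE motif TGACGTCA (1.79%). A match is a run of letters, and binding was not measured here.

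**Figure D1:**
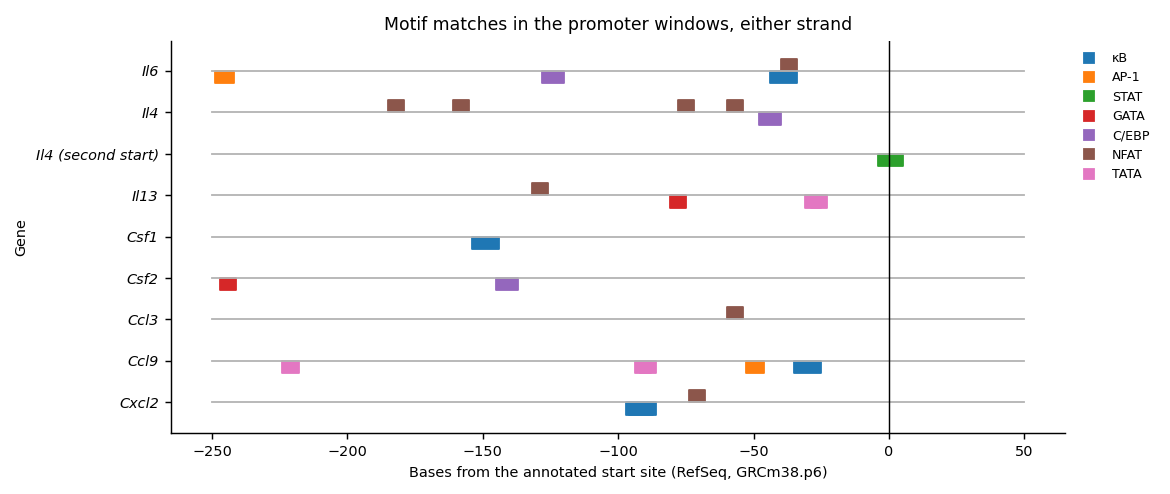
Motif matches in the promoter windows of 8 genes, with the distance from the annotated start site in bases on the x axis and one line per window. NFAT matches are drawn above the line and the others below, and κB matches stand in the lines of Il6, Csf1, Ccl9 and Cxcl2.

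By position, 7 of the 10 genes lie on chromosome 11, 2 on chromosome 5 and 1 on chromosome 3 (GENCODE M21, GRCm38). Il4 (chr11:53602982-53618669) and Il13 (chr11:53631324-53634702) are separated by 12.7 kb in the type 2 cytokine cluster, and Csf2 (chr11:54247271-54249667) follows 612.6 kb further on. Ccl9 (chr11:83572919-83578636) lies 69.2 kb from Ccl3 (chr11:83647844-83649355), which is 13.2 kb from Ccl4 (chr11:83662584-83664683). Osm (chr11:4236420-4241026) stands alone on this chromosome. Il6 (chr5:30013114-30019981) and Cxcl2 (chr5:90903871-90905938) share chromosome 5, and Csf1 (chr3:107741048-107760469) lies on chromosome 3. Csf2 is overlapped on the other strand by Gm12223, which is listed at 0 in all 12 libraries. The strand setting of the counting is not given in the sources used here.

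Il6 RNA was highest in DP cells. It lay at 12.6, 4.14 and 8.06 RPKM in DP1, DP2 and DP3 (225, 74 and 136 reads), and at 0, 0.103 and 1.37 RPKM in SP1, SP2 and SP3. All DP libraries stood above all SP libraries. Under imatinib it lay at 2.58, 4.07 and 0.207 RPKM in IMDP1, IMDP2 and IMDP3, and at 0.150, 0.308 and 0 RPKM in IMSP1, IMSP2 and IMSP3. All IMDP libraries lay below all DP libraries, and IMDP3, with 4 reads, fell among the IMSP values. DP libraries averaged 8.26 ± 4.23 RPKM (SD, n = 3) and SP libraries 0.490 ± 0.761, against 2.28 ± 1.95 for IMDP and 0.153 ± 0.154 for IMSP cells. On the log2(RPKM + 0.1) scale, the difference was 4.62 ± 1.28 (SE) between DP and SP, 2.80 ± 1.28 between IMDP and IMSP, -2.33 ± 1.28 between IMDP and DP and -0.52 ± 1.28 between IMSP and SP. The SE comes from the spread within the 4 groups. Il6 was higher in the G0M+ than in the G0M- library of 6 of 6 neighbouring pairs.

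Il4, the type 2 interleukin that drives IgE and mast cell responses, had the same order of groups as Il6. Its mean was lower than that of Il6 in DP and IMDP cells and higher in SP and IMSP cells. Il4 lay at 2.94, 3.49 and 4.61 RPKM in DP1 to DP3 and at 0.332, 0 and 2.03 RPKM in SP1 to SP3. Under imatinib it lay at 1.85, 2.75 and 0.403 RPKM in IMDP1 to IMDP3 and at 0.0971, 0.450 and 0.127 RPKM in IMSP1 to IMSP3. The DP libraries stood above all libraries of the other groups, and IMDP and IMSP overlapped through IMDP3. Il4 differed by 3.04 ± 1.11 (SE, log2 scale) between DP and SP and by 2.28 ± 1.11 between IMDP and IMSP, and it was higher in the G0M+ library of 6 of 6 neighbouring pairs. No IMSP library held more than 3 Il4 reads, so its low values rest on single reads. SP3 was the SP library with the most Il6 and the most Il4.

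Il13, the neighbour of Il4 with overlapping functions, was near the limit of detection. It lay at 1.85, 0.265 and 0.729 RPKM in DP1 to DP3 (35, 5 and 13 reads), at 0.0403, 0.244 and 0 RPKM in SP1 to SP3, at 0.257, 0.334 and 0 RPKM in IMDP1 to IMDP3, and at 0, 0.0729 and 0 RPKM in IMSP1 to IMSP3. The DP libraries stood above the SP libraries by a narrow gap, since DP2 and SP2 held 5 reads each. The mean of the DP libraries was 0.949 ± 0.817 RPKM (SD, n = 3), that of the SP libraries 0.0949 ± 0.131 RPKM, and the log2 difference was 2.31 ± 0.80. A library at 0 allows up to 0.142 to 0.185 RPKM of Il13, taking 3 reads as the floor, which covers counting error only since PCR copies were not marked.

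Csf2 (GM-CSF), which expands granulocytes and macrophages, was read in DP cells and in no other group. It lay at 1.69, 0.548 and 0.531 RPKM in DP1, DP2 and DP3, from 37, 12 and 11 reads, and it was listed at 0 in all 9 other libraries. With 3 reads over a group as the floor, Csf2 was at least 22.1-fold higher in DP than in SP cells and at least 19.4-fold lower in IMDP than in DP cells. DP1 held 37 of the 60 reads, and without it these bounds were 12.8-fold and 11.3-fold. A library at 0 allows up to 0.104 to 0.189 RPKM, below the lowest DP library. In bulk RNA of 100 cells, fewer cells with the transcript and less RNA per cell cannot be told apart.

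Csf1 (M-CSF), the growth factor of macrophages, was low in all groups. It lay at 2.24, 0.303 and 0.856 RPKM in DP1 to DP3, at 0.550, 0.253 and 0.235 RPKM in SP1 to SP3, at 0.910, 0.669 and 0.547 RPKM in IMDP1 to IMDP3 and at 0.206, 0.199 and 0.654 RPKM in IMSP1 to IMSP3. DP1 was the single library above 1 RPKM, and DP2 lay within the range of the SP libraries. The log2 difference between DP and SP was 1.18 ± 0.65 (SE), and it was 0.55 without DP1 and IMDP1. Between IMDP and DP it was -0.28 ± 0.65, with the opposite sign (0.18) without these 2 libraries.

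Osm, an IL-6 family cytokine, had the highest mean of the 10 genes in each of the 4 groups. It lay at 39.3, 77.7 and 19.7 RPKM in DP1 to DP3, at 14.5, 13.5 and 30.4 RPKM in SP1 to SP3, at 15.7, 17.0 and 17.1 RPKM in IMDP1 to IMDP3 and at 5.79, 8.58 and 15.2 RPKM in IMSP1 to IMSP3. DP2 and SP3, which are neighbours in library number, were the highest of their groups, and SP3 exceeded DP3. The IMDP libraries lay between the highest IMSP and the lowest DP library, without overlap with either. The log2 difference was 1.11 ± 0.56 (SE) between DP and SP, 0.86 ± 0.56 between IMDP and IMSP, -1.23 ± 0.56 between IMDP and DP and -0.99 ± 0.56 between IMSP and SP. In 6 of 6 neighbouring pairs the G0M+ library had more Osm.

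**Figure D2:**
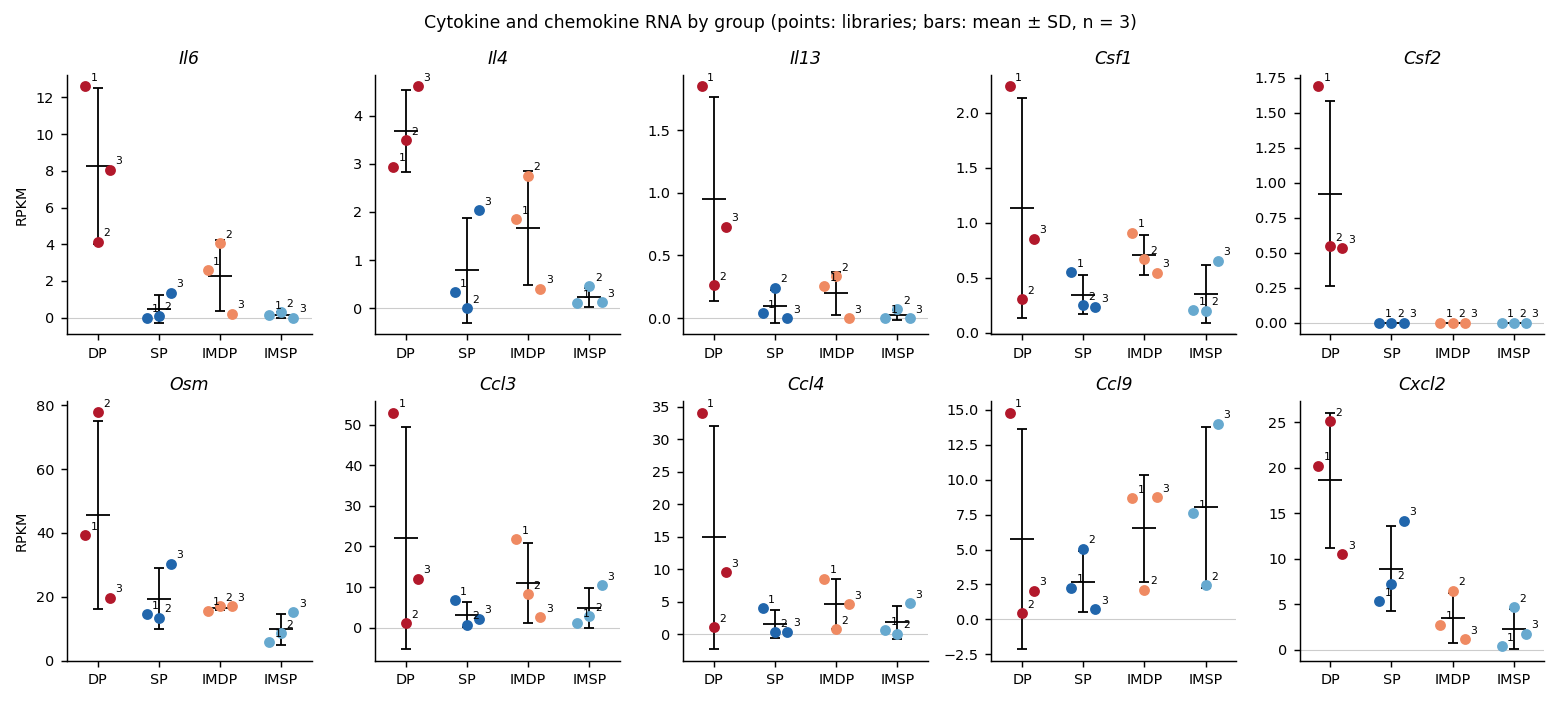
RPKM of each gene (y axis, linear) by group (x axis), with points for the libraries, numbered by replicate, and lines for the mean ± SD (n = 3). Il6, Il4, Il13 and Csf2 are highest in DP without overlap with SP, while the DP values of Ccl3, Ccl4 and Ccl9 spread from near 0 to the highest value of the 12 libraries.

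Cxcl2, a chemokine for neutrophils, had larger log2 differences between treatments than between populations. It lay at 20.2, 25.1 and 10.5 RPKM in DP1 to DP3 and at 5.34, 7.24 and 14.2 RPKM in SP1 to SP3. Under imatinib it lay at 2.79, 6.52 and 1.20 RPKM in IMDP1 to IMDP3 and at 0.420, 4.71 and 1.78 RPKM in IMSP1 to IMSP3. In both populations every imatinib library lay below every vehicle library. The log2 difference was -2.59 ± 0.90 (SE) between IMDP and DP and -2.31 ± 0.90 between IMSP and SP, against 1.08 ± 0.90 between DP and SP and 0.80 ± 0.90 between IMDP and IMSP. Cxcl2 was the one gene of the 10 whose IMSP and SP libraries did not overlap. Imatinib and the library order cannot be told apart here.

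Ccl3 and Ccl4, which attract monocytes and lymphocytes, were highest in DP1. Ccl3 lay at 53.0, 1.13 and 12.1 RPKM in DP1 to DP3, at 6.77, 0.746 and 2.16 RPKM in SP1 to SP3, at 21.8, 8.25 and 2.62 RPKM in IMDP1 to IMDP3 and at 1.22, 2.78 and 10.5 RPKM in IMSP1 to IMSP3. DP2 was lower than 2 of the 3 SP libraries, and the groups overlapped in all 4 comparisons. Ccl4 lay at 34.1, 1.09 and 9.57 RPKM in DP1 to DP3, at 4.07, 0.334 and 0.421 RPKM in SP1 to SP3, at 8.59, 0.837 and 4.61 RPKM in IMDP1 to IMDP3 and at 0.644, 0.0996 and 4.79 RPKM in IMSP1 to IMSP3. The log2 difference between DP and SP was 1.97 ± 1.55 (SE) for Ccl3 and 2.90 ± 1.70 for Ccl4, and without DP1 and IMDP1 it was 0.71 and 1.79.

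Ccl9, a myeloid chemokine that acts through Ccr1, had another order of groups. It lay at 14.8, 0.425 and 2.04 RPKM in DP1 to DP3, at 2.28, 5.06 and 0.741 RPKM in SP1 to SP3, at 8.67, 2.12 and 8.73 RPKM in IMDP1 to IMDP3 and at 7.62, 2.46 and 14.0 RPKM in IMSP1 to IMSP3. Its highest mean was in IMSP cells (8.01 ± 5.76 RPKM, SD, n = 3), and the lowest in SP cells (2.69 ± 2.19 RPKM). All neighbouring groups in this order overlapped. The log2 difference was 0.24 ± 1.32 (SE) between DP and SP, and -1.04 without DP1 and IMDP1. Between IMDP and IMSP it was -0.23 ± 1.32, and 0.04 when the libraries were scaled to the same median.

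**Figure D3:**
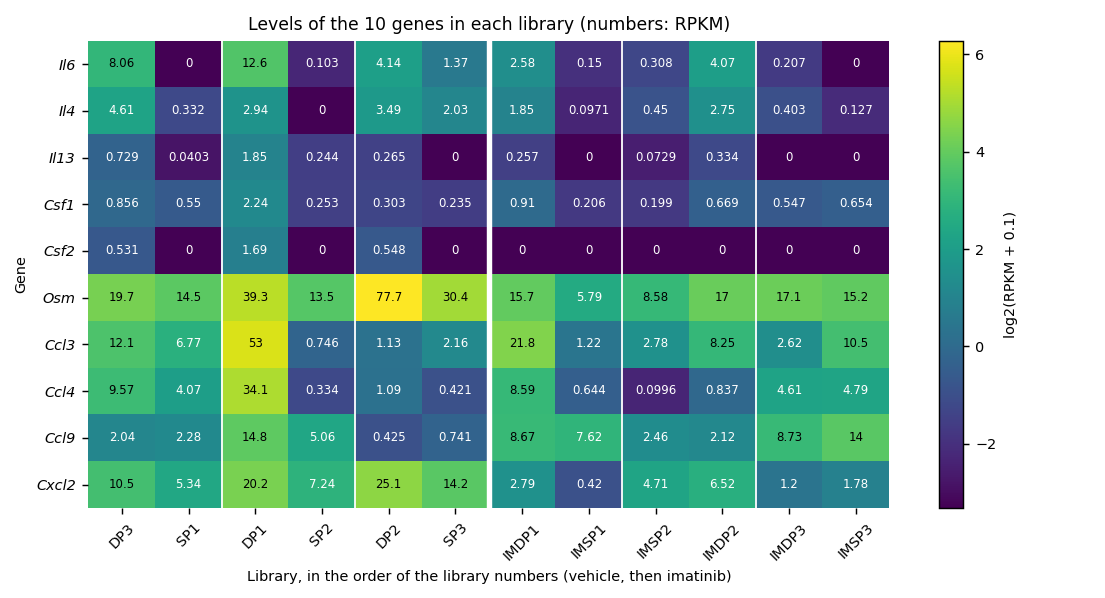
Heat map of the 10 genes (rows) in the 12 libraries (columns, in the order of the library numbers), colored by log2(RPKM + 0.1) with the RPKM written in each cell. Thin white lines part neighbouring pairs of a G0M+ and a G0M- library and the thick line parts vehicle from imatinib.

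Across the 12 libraries, levels of some of the genes varied together. Of the 10 genes, 7 were highest in DP1, 2 (Osm and Cxcl2) in DP2 and 1 (Il4) in DP3. On the log2 scale, Pearson's r of Il6 was 0.91 with Il4 and 0.80 with Il13 (n = 12), and after removal of the group means it was 0.75 and 0.44. Il4 and Il13 had r = 0.59, and -0.04 within groups. For Csf1, Ccl3 and Ccl4, r was 0.92 between Csf1 and Ccl3, 0.92 between Csf1 and Ccl4 and 0.81 between Ccl3 and Ccl4, with values within groups of 0.93, 0.87 and 0.77. Ccl9 had r = 0.48 with Csf1, 0.49 with Ccl4 and 0.45 with Ccl3, and 0.76, 0.77 and 0.53 within groups. Osm and Cxcl2 had r = 0.79, and 0.52 within groups. Il6 and Ccl9 had r = -0.25. These points share groups and neighbouring libraries, and the values are given as a description.

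**Figure D4:**
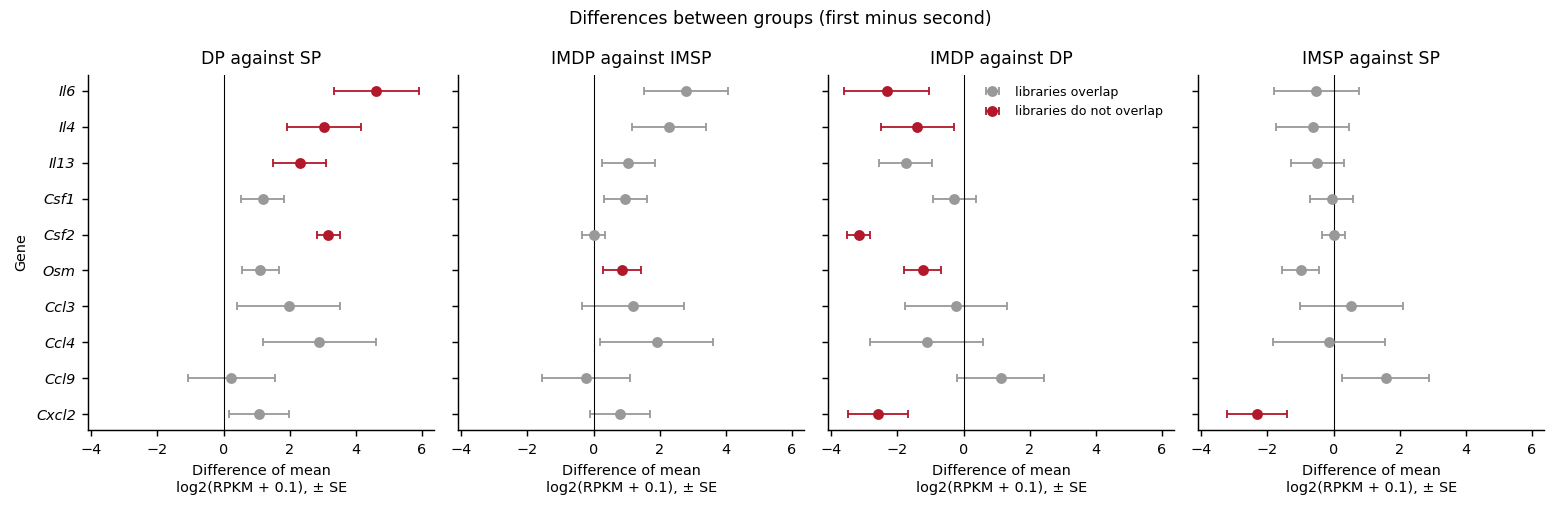
Difference of mean log2(RPKM + 0.1) for each gene (x axis, first group minus second, bars ± SE from the spread within the 4 groups), with genes on the y axis and one panel per comparison. Red points mark genes whose libraries do not overlap, which are 4, 1, 5 and 1 genes from the left to the right panel. The SE of Csf2 rests on the DP libraries alone, since the other groups are at 0.

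Between DP and SP cells, all 10 means were higher in DP, with a median log2 difference of 2.14 against a median of -0.02 over the 10072 genes tested. For the 7 members that passed the filter, the median was 1.97. Libraries did not overlap for 4 of the 10 genes (Il6, Il4, Il13 and Csf2), against 9.68% of all genes tested that were higher in DP without overlap. Il13 and Csf2 did not pass the filter, so they are not among the genes tested. These counts describe the values by which the genes were chosen and carry no test. The limma fit called 2.26% of all genes tested at an adjusted p under 0.05.

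Between IMDP and IMSP cells, 8 means were higher in IMDP, 1 was lower (Ccl9) and Csf2 was at 0 in both. The median log2 difference was 1.00, or 1.05 over the 9 genes with reads, against -0.25 over all genes tested. For the 7 members that passed the filter, the median was 1.20. Libraries did not overlap for 1 gene (Osm), against 6.21% of all genes tested. Limma called 25.6% of all genes tested in this comparison, and 26.3% between G0M+ and G0M- cells averaged over both treatments.

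Between IMDP and DP cells, 9 of the 10 means were lower in IMDP, with a median log2 difference of -1.32 against -0.17 over all genes tested. For the 7 members that passed the filter, the median was -1.23. Libraries did not overlap for 5 genes (Il6, Il4, Csf2, Osm and Cxcl2), against 19.0% of all genes tested that were lower in IMDP without overlap. Limma called 0.367% of all genes tested. Between IMSP and SP cells, 7 log2 means were lower and 2 (Ccl3 and Ccl9) higher in IMSP. By mean RPKM, Csf1 (0.353 against 0.346) and Ccl4 (1.84 against 1.61) were higher in IMSP as well. The median log2 difference was -0.31, or -0.49 over the 9 genes with reads, against 0.08 over all genes. For the 7 members that passed the filter, the median was -0.52. The libraries did not overlap for Cxcl2, against 2.72% of all genes tested, and limma called 0% of all genes, with 845 of 10072 at an unadjusted p under 0.05. The interaction, which asks whether the population difference itself changed under imatinib, was called for 0% of all genes by limma, with 937 at an unadjusted p under 0.05. Limma-voom on the recovered reads called 0 genes in both of these comparisons too.

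The receptors of the 10 ligands were not used to choose them and were tested. Csf2rb2, a chain of the IL-3 receptor, was tested with them, though Il3 is not one of the 10 genes. Of 19 receptor genes, 9 passed the filter, and 2 rose in G0M+ against G0M- cells, where 26.3% of all genes tested were called. These 2 were Csf2rb2, a beta chain paralog of the IL-3 receptor, and Il2rg, the common gamma chain that pairs with Il4ra. The median of the 9 was 0.06 on the log2 scale, against -0.13 over all genes tested. Without a block, none was called between DP and SP, IMDP and IMSP, IMDP and DP or IMSP and SP cells. Il2rg lay at 37.2, 33.7 and 35.2 RPKM in DP1 to DP3, at 19.0, 18.9 and 25.4 RPKM in SP1 to SP3, at 24.9, 29.1 and 24.5 RPKM in IMDP1 to IMDP3 and at 21.2, 26.0 and 15.2 RPKM in IMSP1 to IMSP3. Its log2 fold change was 0.56 ± 0.13 (SE; limma, adjusted p = 0.0118). Between DP and SP cells it was 0.76 (limma, adjusted p = 0.0681), and this difference was called with neighbouring libraries as a block (limma, adjusted p = 0.0141). DP and SP libraries were apart, and IMDP and IMSP libraries overlapped through IMSP2.

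Csf2rb2 lay at 11.2, 2.99 and 5.18 RPKM in DP1 to DP3 and at 1.02, 0.833 and 0.376 RPKM in SP1 to SP3. It lay at 3.45, 4.18 and 3.13 RPKM in IMDP1 to IMDP3 and at 0.492, 1.58 and 6.37 RPKM in IMSP1 to IMSP3. IMSP3 was the one G0M- library within the G0M+ range. The log2 fold change was 1.91 ± 0.50 (SE; limma, adjusted p = 0.0177), and both receptor calls held in all 22 alternatives run. Csf2rb2 is nearly identical to Csf2rb (10.8 to 40.2 RPKM), so reads could have been split between them and both values are uncertain. With neighbouring libraries as a block, Csf2rb2 was also called between DP and SP cells (2.85, limma, adjusted p = 0.0142), without the block at an adjusted p of 0.0670.

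The IL-6 receptor chains were read in every library. Il6ra lay at 1.85, 0.397 and 1.62 RPKM in DP1 to DP3, at 2.73, 2.13 and 0.484 RPKM in SP1 to SP3, at 1.83, 0.637 and 2.39 RPKM in IMDP1 to IMDP3 and at 3.86, 1.88 and 7.53 RPKM in IMSP1 to IMSP3. Its log2 fold change in G0M+ against G0M- cells was -0.87 ± 0.51 (limma, adjusted p = 0.219), and with neighbouring libraries as a block -0.87 ± 0.14 (limma, adjusted p = 0.00113). The block also gave a call between IMDP and IMSP cells (-1.36 ± 0.19, limma, adjusted p = 0.000824, against 0.185 without it). Il6st, the signaling chain shared with Osm, lay at 1.46 to 17.4 RPKM and passed in no comparison. IMSP3 was the highest library for Il6ra, Il6st, Il4ra (28.1 RPKM), Csf1r (28.7 RPKM) and Csf2rb (40.2 RPKM).

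The remaining receptors failed the filter or were not called. Osmr and Il13ra2 were listed at 0 in all 12 libraries, and Lifr, the other partner chain for Osm, reached at most 0.423 RPKM. Ccr1, a receptor of Ccl3 and Ccl9, lay at 0.0903 to 2.25 RPKM and failed the filter. Ccr3, which failed it too, lay at 0.0559 to 0.149 RPKM in DP and 0.294 to 0.931 RPKM in IMDP libraries. It was listed at 0 in all SP and IMSP libraries. Cxcr2, the receptor of Cxcl2, lay at 0.348 to 1.93 RPKM and Csf2ra at 0.769 to 2.48 RPKM, and neither passed in any comparison. Il4ra, which binds IL-4, lay at 5.41 to 28.1 RPKM and did not pass either.

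**Figure D5:**
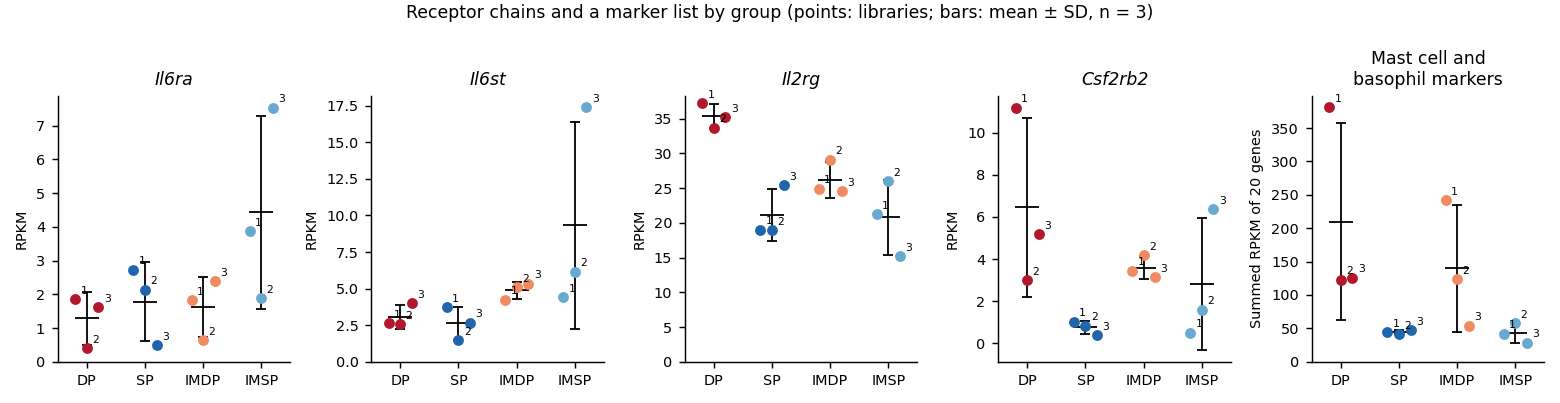
RPKM of 4 receptor chains and the summed RPKM of 20 mast cell and basophil markers (y axes, linear) by group, with points for the libraries, numbered by replicate, and lines for the mean ± SD (n = 3). Il2rg is apart between DP and SP, IMSP3 stands above the other libraries for Il6ra and Il6st, and DP1 and IMDP1 are the highest libraries of the marker sum.

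Of 32 other chemokines, 4 passed the filter, with a median log2 fold change of 2.64 in G0M+ against G0M- cells. There 2 rose, against 26.3% of all genes tested that were called in either direction. Ccl6, a myeloid chemokine, had a log2 fold change of 4.53 ± 1.00 (limma, adjusted p = 0.00812). It lay at 88.0, 2.40 and 22.4 RPKM in DP1 to DP3 and at 58.9, 15.7 and 0.740 RPKM in IMDP1 to IMDP3, against 0.184 to 0.775 RPKM in the 6 G0M- libraries. Ppbp, a platelet chemokine, had 4.66 ± 1.12 (limma, adjusted p = 0.0119), at 57.8, 1.59 and 6.55 RPKM in DP1 to DP3 and 0.572, 40.0 and 0.218 RPKM in IMDP1 to IMDP3, against 0 to 0.162 RPKM in the 6 G0M- libraries. DP1 and IMDP2 held most of it, and IMDP3 lay near the highest G0M- library. Neither Ccl6 nor Ppbp reached 1 RPKM in a G0M- library, so both passed the filter only through the groups where they are high. Limma-voom on the recovered reads called neither, with an adjusted p of 0.209 for Ccl6 and 0.273 for Ppbp. The 3 highest libraries of Ccl6 were DP1, IMDP1 and DP3, as for Ccl3 and Ccl4.

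Of 35 other secreted cytokines, 8 passed the filter, with a median log2 fold change of 0.37 in G0M+ against G0M- cells. There 3 rose, against 26.3% of all genes tested that were called in either direction. Clcf1, an IL-6 family cytokine, had a log2 fold change of 1.04 ± 0.22 (limma, adjusted p = 0.00658). It reached 1 RPKM in the IMDP libraries alone (1.51 to 1.78 RPKM), so it passed the filter only through a group where it is high. Fits without an IMDP library did not test Clcf1. Flt3l, the ligand of the receptor Flt3, had 1.56 ± 0.40 (limma, adjusted p = 0.0166). Lif, the leukemia inhibitory factor of the same IL-6 family, had 1.59 ± 0.42 (limma, adjusted p = 0.0178), and was lost without DP2 (limma, adjusted p = 0.0547) and without DP1 and IMDP1 together (0.0675). Clcf1 and Flt3l were also called between IMDP and IMSP cells (0.90 and 1.95, limma, adjusted p = 0.0495 and 0.0284). The IMDP-IMSP call of Clcf1 was lost without each of DP1 to DP3, SP1, SP2 and IMSP1 to IMSP3, and that of Flt3l without IMDP2, IMDP3, IMSP1 or IMSP3, with adjusted p up to 0.166 and 0.115.

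Of 18 JAK-STAT components and feedback genes, which carry the signals of these receptors, 17 passed the filter (median log2 fold change 0.24 in G0M+ against G0M- cells). There 1 rose and 1 fell, against 26.3% of all genes tested that were called. Irs2, an adaptor of IL-4 receptor signaling, had a log2 fold change of 1.06 ± 0.21 (limma, adjusted p = 0.00538). The phosphatase gene Ptpn6, a brake on cytokine receptors, had -0.24 ± 0.08 (limma, adjusted p = 0.0465), and its call was lost without each of 10 of the 12 libraries, all but SP2 and IMDP1, with adjusted p of 0.0628 to 0.108. It was also lost when libraries were scaled to the same median (limma, adjusted p = 0.469). Between IMDP and IMSP cells Irs2 was higher (0.90) and Ptpn6 (-0.41) and Ptpn11 (-0.47) were lower by limma. The Irs2 call was lost without each library but IMDP1 and IMSP2, that of Ptpn6 without IMDP2, IMDP3, IMSP1 or IMSP2, and that of Ptpn11 without these or SP1, with adjusted p up to 0.182, 0.0864 and 0.118. Ptpn6 and Ptpn11 were also lost under scaling to the same median (limma, adjusted p = 0.424 and 0.236). Stat3 lay at 12.1 to 19.7 RPKM and passed in no comparison.

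Of 13 factors that control the decay of cytokine mRNA, all passed the filter (median log2 fold change 0.18 in G0M+ against G0M- cells). There 1 rose and 2 fell, against 26.3% of all genes tested that were called. Khsrp and Hnrnpd, which promote decay of AU-rich mRNA, had log2 fold changes of -0.35 ± 0.09 (limma, adjusted p = 0.0137) and -0.44 ± 0.11 (limma, adjusted p = 0.0157), beside a median of -0.13 over all genes tested. Both calls held in all 22 alternatives. Zfp36l1, of the same function, had 0.70 ± 0.23 (limma, adjusted p = 0.0394), and was lost without DP2, DP3, SP2, IMDP1, IMDP2, IMDP3, IMSP1 or IMSP3 (limma, adjusted p = 0.0581 to 0.0976). Between IMDP and IMSP cells Khsrp (-0.50), Hnrnpd (-0.63) and Elavl1 (-0.51) were lower by limma. All 3 were lost under scaling to the same median (limma, adjusted p = 0.0859, 0.0897 and 0.17), and without IMDP2, IMDP3 or IMSP1, Elavl1 also without IMSP2, with adjusted p up to 0.0671, 0.0647 and 0.109. Zfp36, the best known of these factors, lay at 18.8 to 107 RPKM and was not called.

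Of 18 transcription factors of cytokine genes, 16 passed the filter (median log2 fold change 0.27 in G0M+ against G0M- cells). There 2 rose and 1 fell, against 26.3% of all genes tested that were called. Nfatc2, a calcium-driven activator of cytokine genes, had a log2 fold change of 0.98 ± 0.29 (limma, adjusted p = 0.0276), the AP-1 member Fosl2 had 0.78 ± 0.26 (limma, adjusted p = 0.0438), and Cebpa, a granulocyte lineage factor, had -1.41 ± 0.44 (limma, adjusted p = 0.0360). Nfatc2 and Cebpa were lost without DP2, DP3, SP1, SP2, IMDP2, IMSP1 or IMSP3, with adjusted p up to 0.0714 and 0.0884, and Fosl2 without DP2, DP3, SP2, IMDP2, IMDP3, IMSP1 or IMSP2, with up to 0.108. Under scaling to the same median Cebpa had an adjusted p of 0.0553 by limma. The NF-κB genes Rela, Nfkb1 and Rel lay at 8.41 to 18.5, 18.0 to 33.8 and 3.53 to 18.7 RPKM and were not called. Between IMDP and IMSP cells Cebpa (-1.84) and Cebpb (-1.07) were lower by limma, and both were lost under scaling to the same median (limma, adjusted p = 0.0996 and 0.138). Cebpa was lost there without DP3, SP1 to SP3, IMDP2, IMDP3, IMSP1 or IMSP3, and Cebpb without DP2, SP1, IMDP1 to IMDP3, IMSP1 or IMSP3, with adjusted p up to 0.194 and 0.154.

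Markers of other cell types were measured beside these values. The summed RPKM of 20 mast cell and basophil markers was 381, 123 and 126 in DP1 to DP3, 41.4 to 47.6 in SP, 242, 124 and 53.9 in IMDP1 to IMDP3 and 28.6 to 58.0 in IMSP cells. Of the 20, 12 passed the filter (median log2 fold change 1.63 in G0M+ against G0M- cells). There 5 rose and none fell, against 26.3% of all genes tested that were called. Prss34, a basophil protease, had a log2 fold change of 6.07 ± 1.12 (limma, adjusted p = 0.00353), Cma1, a mast cell chymase, 5.15 ± 1.07 (limma, adjusted p = 0.00625), and Mcpt8, a basophil protease, 2.04 ± 0.55 (limma, adjusted p = 0.0198). The others were Fcer1a, a chain of the IgE receptor, and Il1rl1, the IL-33 receptor (3.40 and 2.03, limma, adjusted p = 0.0270 and 0.0305). Of the 5 calls, limma-voom on the recovered reads kept that of Mcpt8 alone, with adjusted p of 0.207 for Prss34, 0.0631 for Cma1, 0.238 for Fcer1a and 0.117 for Il1rl1. Fcer1a and Il1rl1 were also lost without DP1 and IMDP1 together (limma, adjusted p = 0.0714 and 0.103). Fcer1a was lost without SP2, IMDP1 or IMDP2 as well, and Il1rl1 without DP1, SP1, IMDP1, IMDP2, IMSP1 or IMSP3, with adjusted p up to 0.0634 and 0.0684 by limma. Between DP and SP cells Cma1 and Prss34 were called (7.04 and 6.97, limma, adjusted p = 0.0293 and 0.0419), against 2.26% of all genes tested. Between IMDP and IMSP cells Prss34 and Ltc4s were called (5.17 and 1.05, limma, adjusted p = 0.0341 and 0.0371), against 25.6%. Limma-voom on the recovered reads kept none of the calls in these 2 comparisons. Neither Prss34 nor Cma1 reached 1 RPKM in a G0M- library, so both passed the filter only through the groups where they are high. Tpsab1 and Mrgprb2 were at 0 in all groups, and Tpsb2, a mast cell tryptase, was read in DP1 and IMDP1 alone at 8.13 and 11.1 RPKM. IMDP3, the G0M+ library with the lowest sum, was also the lowest of the 6 for Il6, Il4, Il13 and Cxcl2, but not for Csf1, Osm, Ccl3, Ccl4 or Ccl9. The part of such cells in the members' levels was not tested.

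Of 14 monocyte and macrophage markers, 7 passed the filter (median log2 fold change 0.13 in G0M+ against G0M- cells). There 2 rose, against 26.3% of all genes tested that were called in either direction. C1qc, a complement gene of macrophages, had a log2 fold change of 3.42 ± 0.58 (limma, adjusted p = 0.00221), at 0.342 to 1.65 RPKM in the G0M+ libraries and at 0 in the 6 others. It thus passed the filter only through the groups where it is high. Adgre1, which encodes F4/80, had 1.58 ± 0.53 (limma, adjusted p = 0.0454) and was lost without each of 10 of the 12 libraries, all but DP2 and IMSP3, with adjusted p of 0.0548 to 0.0903, and without DP1 and IMDP1 together (0.171). The summed level ranged from 34.1 to 110 RPKM in DP, 37.8 to 116 in SP, 53.9 to 85.9 in IMDP and 55.5 to 226 in IMSP cells. C1qa, C1qb, C1qc and Mertk were at 0 in all SP and IMSP libraries, while all other markers of this list were read in both groups. Whether such cells add to the members' levels was not tested.

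Of 12 neutrophil markers, 4 passed the filter (median log2 fold change -2.04 in G0M+ against G0M- cells). Mpo, a granule gene of early granulocytes, fell there (-2.33 ± 0.69, limma, adjusted p = 0.0299), beside 26.3% of all genes tested that were called. The call of Mpo was lost without DP2, DP3, SP1, SP2, IMDP2, IMSP1 or IMSP3 (limma, adjusted p up to 0.0764). The summed level of these markers was 46.0 to 1058 RPKM in DP, 285 to 2010 in SP, 50.0 to 204 in IMDP and 370 to 1607 in IMSP cells. The 13 T, NK and innate lymphoid markers, 5 eosinophil markers and 6 B cell markers include other sources of Il4, Il13 and Csf2. Only 4, 1 and 1 of these markers passed the filter, so most were not tested, and none was called by limma. Their summed levels were 35.1 to 279, 0.882 to 2.79 and 1.38 to 4.13 RPKM over all groups, and most of the first was Nkg7, which myeloid progenitors also express (25.1 to 265 RPKM). Cd3e was at 0 in all DP and SP libraries and at 1.27 RPKM in IMDP1, and Ms4a1, Pax5 and Ebf1 were at 0 in all libraries. Their part was not tested.

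The 5 tested genes whose pattern over the 12 libraries was most like that of Il6, members left out, were Id2 (Pearson's r = 0.94 on the log2 scale), Il2rg (0.92), Cacfd1 (0.91), Furin (0.91) and Lama5 (0.90). Id2, an inhibitor of helix-loop-helix factors, averaged 6.57 ± 2.92 RPKM (SD, n = 3) in DP libraries against 1.67 ± 0.391 in SP libraries, and 2.40 ± 1.03 in IMDP and 1.07 ± 0.481 in IMSP cells. Furin, a protease that processes proproteins, averaged 20.4 ± 8.70 RPKM in DP and 5.26 ± 0.852 in SP cells, and 9.77 ± 4.29 in IMDP and 4.01 ± 0.141 in IMSP cells. Within groups, r was 0.85 for Id2, 0.74 for Il2rg, 0.81 for Cacfd1, 0.62 for Furin and 0.75 for Lama5.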

How the data were processed

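RNA of 100 sorted cells was measured in each of 12 libraries. The authors primed cDNA with not-so-random primers, made Nextera XT libraries, mapped the reads to GRCm38/mm10 and deposited an RPKM for each feature of a library. Their mapping is described with CLC Genomics Workbench, another statement of the study names HISAT2 and featureCounts, and edgeR was used by the authors for statistics. Whether a further normalization is part of the deposited RPKM, and the strand setting, are not given in the sources used here. RPKM values stood in whole-read steps for 17711 of the 17735 features above 0 (tolerance 0.0001 reads), so read numbers and totals were recovered. No library pair held identical values. Numbered copies of a gene were summed, and columns of other samples were absent (0).

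The 10072 genes that reached 1 RPKM in 3 or more libraries were fitted with limma 3.58.1 in R 4.3.3 on log2(RPKM + 0.1), with 4 group means, a mean-variance trend and Benjamini-Hochberg adjustment at 0.05 over all genes tested. All fold changes are on this scale, which understates the change of low genes. G0M+ against G0M- averages both treatments. The fit was tested on simulated data. Members, gene lists, motifs and comparisons were chosen with earlier results of these data known. The genes named are the 10 members, receptors called in any comparison and the 5 genes most like Il6. Each other list gave up to 3 called genes by smallest adjusted p. Further genes are given for their level, and Fcer1a, Il1rl1, Ltc4s and Ccr3 were added after their values were seen. The libraries were paired by neighbouring library numbers from the labels, which were checked by the correlation of deviations from group means (0.43 to 0.65). Same replicate numbers pair the imatinib libraries in the same way, but not the vehicle libraries (-0.30 to -0.10). Filters, pseudocounts, scaling, blocks, limma-voom on the recovered reads and left-out libraries were tried as alternatives. Leaving out DP1 and IMDP1 together, and a replicate block between treatments, were chosen after seeing the data. Figures were drawn with Python 3.11.15 and matplotlib 3.10.9.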

Additional observations from a re-analysis of the deposited data

How the results depend on the processing

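The members' median log2 difference kept its direction under every alternative run. Leaving out 1 library gave 1.40 to 2.99 for DP against SP, 0.64 to 1.52 for IMDP against IMSP, -2.01 to -1.14 for IMDP against DP and -0.46 to -0.11 for IMSP against SP. Of the 40 differences of single members, 12 changed sign under some alternative, among them Ccl9 between DP and SP without DP1 (-1.04) or without SP3 (-0.45). A larger pseudocount of 1 gave 2.64 for Il6, 1.54 for Il4, 0.76 for Il13 and 0.89 for Csf2 between DP and SP.

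The numbers of genes called moved more. Scaling to the same median gave 1560 genes between IMDP and IMSP (635 higher, against 239 of 2581), 2 between IMDP and DP, and 2360 between G0M+ and G0M- (1116 higher, against 536 of 2648). Fitting the compared groups alone gave 1553 between IMDP and IMSP and 0 between IMDP and DP, with 1724 at an unadjusted p under 0.05 by limma. Limma-voom gave 9 between IMDP and DP, and leaving out DP1 and IMDP1 gave 2. The block of neighbouring libraries gave 980, 4446 and 4721 genes for DP against SP, IMDP against IMSP and G0M+ against G0M-. The replicate block gave 233, 2920, 38, 0 and 3059 genes in the 5 comparisons, and 2 receptors. Leaving out 1 library gave 125 to 263 genes for DP against SP, 900 to 2966 for IMDP against IMSP, 0 to 218 for IMDP against DP, 1585 to 3046 for G0M+ against G0M-, and 0 to 1 for the interaction, the 1 gene being Hist1h2bl without IMDP2 (-5.49, limma, adjusted p = 0.0154), which was chosen after its value was seen. The receptor count was 2 in each of these fits, and 0 genes were called between IMSP and SP cells in all of them. A filter of 0.1 RPKM, no filter and the block of neighbouring libraries each gave 3 receptors. For other named genes, 615 results under an alternative kept their call, 220 lost it and 0 changed sign. The cause was not tested. With 3 libraries of 100 cells a group, genes of a few reads such as Il13 and Csf2 limit what can be seen.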
